A study of Mus musculus with 9 samples.

Results

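Interferon-stimulated antiviral genes are transcribed in response to interferons and encode proteins that recognise, degrade or trap viral nucleic acid and particles. A list of 40 such genes was followed in mouse spinal cord, and the list was chosen by name and by depth: a gene had to reach 10 counts in at least 3 of the 9 libraries. All 40 listed genes met this condition, out of 27179 identifiers in the count table. The gene nearest to the limit was Oas3, with 3, 3 and 4 counts in the Control libraries and 14 to 51 counts in the other libraries. It was the one member with no Control library at 10 counts.

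The samples were spinal cords of C57BL/6 mice in 3 groups of 3 biological replicates. One group was Control. The second had experimental autoimmune encephalomyelitis, abbreviated EAE, in which the immune system attacks myelin as in multiple sclerosis. The third had EAE and was given EHP-101 orally, 20 mg/kg (the EAE+EHP-101 group, called treated mice below). EHP-101 is a compound known by a code name and is described elsewhere as acting on PPAR gamma and a cannabinoid receptor. The sources used here do not give the age or sex of the mice, how EAE was induced, what the Control and untreated EAE mice received, the disease stage or how long treatment lasted, and they name no transgene or mutation. Libraries held 30448507 (treated replicate 2) to 32661741 counts (EAE replicate 1). Markers of neurons and oligodendrocytes were abundant in all 9 libraries, with summed levels of at least 3951 and 26871 CPM. CPM here means counts scaled to a common library size, after correcting each library by its TMM factor, and values for 3 libraries are always given in the order of replicates 1, 2 and 3. As these are whole-tissue samples, more cells of a type and more RNA per cell cannot be told apart in any of the values below.

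As background, type I interferons bind a receptor made of Ifnar1 and Ifnar2, the receptor's kinases phosphorylate STAT proteins, and these join IRF9 to form a complex that binds the interferon-stimulated response element (ISRE) in promoters. Interferon gamma acts through Ifngr1 and Ifngr2 and leads to binding at the gamma-activated sequence (GAS). In the central nervous system, microglia, astrocytes, neurons and infiltrating leukocytes can all express genes of this programme.

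Promoter windows, from 250 bases before to 50 bases after an annotated start, were taken from RefSeq (GRCm38.p6) for 31 of the 40 members, which had 39 windows. They were searched on both strands for the ISRE core, taken as a pair of GAAA words with any 2 bases between them, and for TTCNNNGAA, the GAS letters. These definitions are textbook consensus forms and were not derived from the data. Matches of either kind were allowed to overlap. The ISRE core was present in 14 of the 31 members (45.2%), and in 3.99% of all 27025 genes with a window and 3.69% of the 12726 tested genes with a window. The GAS letters were present in 8 of the 31 members (25.8%) and in 9.55% of all genes with a window. Of all 32851 windows, 3.44% held the ISRE core. A match is a description of letters and does not show binding.

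The windows below are shown because they span the patterns found: overlapping cores (Isg15, Bst2, Oas1a), spaced cores (Ifit1, Ifit3), and 1 core or none in the head-to-head neighbours Rsad2 and Cmpk2. Each is written 5′ to 3′ on the strand of its gene, with every base of an ISRE core match in capitals.
Isg15, chr4:156200769-156201068, minus strand: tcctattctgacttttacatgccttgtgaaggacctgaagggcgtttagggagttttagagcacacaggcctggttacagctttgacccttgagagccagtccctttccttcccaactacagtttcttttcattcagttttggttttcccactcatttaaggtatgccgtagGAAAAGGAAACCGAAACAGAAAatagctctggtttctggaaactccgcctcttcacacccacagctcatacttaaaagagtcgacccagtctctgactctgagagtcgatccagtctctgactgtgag
Ifit1, chr19:34640639-34640938, plus strand: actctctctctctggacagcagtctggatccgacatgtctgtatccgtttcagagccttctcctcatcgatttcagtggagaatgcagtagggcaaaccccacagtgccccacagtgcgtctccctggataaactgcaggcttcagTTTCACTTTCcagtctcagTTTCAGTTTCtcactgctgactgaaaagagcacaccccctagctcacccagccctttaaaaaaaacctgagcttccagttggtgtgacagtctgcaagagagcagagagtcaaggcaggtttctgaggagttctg
Ifit3, chr19:34583279-34583578, plus strand: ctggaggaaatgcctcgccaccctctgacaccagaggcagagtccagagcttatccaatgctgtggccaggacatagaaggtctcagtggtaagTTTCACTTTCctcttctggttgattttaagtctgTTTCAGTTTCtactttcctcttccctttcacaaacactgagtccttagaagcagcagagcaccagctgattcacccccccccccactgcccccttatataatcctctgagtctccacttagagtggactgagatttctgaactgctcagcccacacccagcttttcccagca
Bst2, chr8:71537423-71537722, minus strand: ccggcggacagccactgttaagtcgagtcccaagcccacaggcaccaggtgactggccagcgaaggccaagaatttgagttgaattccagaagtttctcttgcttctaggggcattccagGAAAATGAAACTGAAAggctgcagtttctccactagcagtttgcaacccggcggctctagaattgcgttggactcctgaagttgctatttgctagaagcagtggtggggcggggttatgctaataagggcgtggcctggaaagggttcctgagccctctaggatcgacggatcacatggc
Oas1a, chr5:120907476-120907775, minus strand: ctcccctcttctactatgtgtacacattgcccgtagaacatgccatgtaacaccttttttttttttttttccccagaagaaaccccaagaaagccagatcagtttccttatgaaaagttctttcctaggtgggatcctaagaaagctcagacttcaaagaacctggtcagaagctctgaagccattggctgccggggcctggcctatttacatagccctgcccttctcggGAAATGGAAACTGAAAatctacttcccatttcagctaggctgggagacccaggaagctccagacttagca
Rsad2, chr12:26456403-26456702, minus strand: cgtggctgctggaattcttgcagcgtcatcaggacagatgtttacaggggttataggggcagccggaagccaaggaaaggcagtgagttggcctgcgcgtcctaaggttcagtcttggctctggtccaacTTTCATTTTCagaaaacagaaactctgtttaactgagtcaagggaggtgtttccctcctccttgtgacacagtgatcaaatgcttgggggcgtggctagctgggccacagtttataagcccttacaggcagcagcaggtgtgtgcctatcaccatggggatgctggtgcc
Cmpk2, chr12:26468965-26469264, plus strand: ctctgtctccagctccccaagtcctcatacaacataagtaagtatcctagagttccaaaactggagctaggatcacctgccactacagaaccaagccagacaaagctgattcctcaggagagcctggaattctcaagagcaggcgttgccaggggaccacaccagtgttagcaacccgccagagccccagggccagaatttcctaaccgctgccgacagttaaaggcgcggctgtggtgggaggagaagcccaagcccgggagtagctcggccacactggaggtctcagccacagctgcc

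In the Isg15 window 3 matches overlapped and covered the bases from 78 to 57 before the start. The matches of Ifit1 began 104 and 85 bases before the start, and those of Ifit3 began 156 and 122 bases before it. In Bst2 overlapping matches began 130 and 124 bases before the start, and a GAS match overlapped the first of them. The overlapping matches of Oas1a lay close to the start, from 20 bases before it. Rsad2 had a single match 120 bases before its start, and the window of Cmpk2 had none. Of the 14 members with a core, 13 rose in EAE (the exception was Slfn5, with a match 155 bases before its start), with a median log2 fold change of 1.61. The 17 members without a core in their windows had a median of 1.01, with 15 higher and 2 lower. The 9 members for which no window was used (Dhx58, Ifi27l2a, Mx1, Mx2, Oas2, Parp14, Parp9, Rtp4 and Usp18) had a median of 1.38. The difference between these medians was not tested.

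In EAE against Control, 36 of the 40 genes rose and 2 fell, Adar and Cmpk2, while Mx2 and Slfn5 did not pass the test. Genes were tested with the quasi-likelihood test of edgeR and called at an adjusted p under 0.05 (Benjamini-Hochberg over 16749 genes). Of all genes tested, 20.2% were called higher and 16.7% lower. The median log2 fold change of the members was 1.45, against 0.0055 for all genes tested, and 26 members rose at least 2-fold. The same 38 genes had no overlap between the 3 Control and the 3 EAE libraries, 36 higher and 2 lower, where 25.6% and 21.1% of all genes were separated in these directions. Fold changes ran from -0.24 for Adar to 3.32 for Oas3 on the log2 scale. With each library left out in turn, 33 of the 38 calls held in all 9 fits. The calls of Eif2ak2, Adar, Rsad2, Cmpk2 and Sp100 ended in at least 1 of those fits, and Mx2 was called higher (adjusted p = 0.0117, edgeR) when EAE replicate 3 was left out.

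In treated mice against EAE mice, 6 of the 40 genes were lower and none was higher by the same edgeR test. The 6 were Bst2, Ifitm3, Parp9, Slfn2, Trim30a and Lgals3bp, beside 4.81% of all genes called lower and 0.430% called higher. At an unadjusted p under 0.05, 24 members were lower and 0 were higher, and DESeq2 and limma voom also called 0 higher. The Wald test of DESeq2 called 13 members lower, the 6 above and Ifih1, Oas1a, Herc6, Parp14, Dtx3l, Slfn8 and Samd9l. The median log2 fold change was -0.52, against -0.0011 for all genes tested, and values ran from -1.66 (Lgals3bp) to 0.19 (Mx2). In 17 members all 3 treated libraries lay below all 3 EAE libraries, a pattern shared by 16.9% of all genes, and in 0 members they lay above, against 10.7% of all genes. Only the call of Lgals3bp held in each of the 18 alternative fits, and the number called lower ranged from 1 to 10 as single libraries were left out. It was 1 without EAE replicate 1 and without EAE replicate 2, 10 without treated replicate 3 and 7 without EAE replicate 3. Over all genes, 464, 348, 790 and 737 were called lower in these fits, in the same order, against 805 with all libraries.

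In treated mice against Control mice, 24 of the 40 genes were higher, 1 was lower (Cmpk2) and 15 did not pass the test. Among all genes tested 9.96% were called higher and 9.82% lower. The median log2 fold change was 0.78, against 0.0149 for all genes tested, with values from -0.27 (Cmpk2) to 2.96 (Oas3). The libraries did not overlap in 22 members that were higher and 1 that was lower, beside 19.0% and 17.5% of all genes. The count of members called higher depended on single libraries: it was 31 without treated replicate 1, 3 without treated replicate 2, 6 without treated replicate 3 and 13 without Control replicate 2. Calls over all genes changed as well, with 1712, 237, 427 and 623 genes higher in the same 4 fits, against 1669 with all libraries. Only Oas3, Bst2 and Parp12 were called in each of these 4 fits and in the other alternatives. Without treated replicate 2 the calls of all 22 other members ended, Cmpk2 included. The mean of the treated mice lay between the Control and EAE means in 37 members, and the others were Mx2, above both means, and Cmpk2 and Slfn5, below both. These 3 comparisons share libraries, so their values are given side by side and not as separate evidence.

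**Figure D1:**
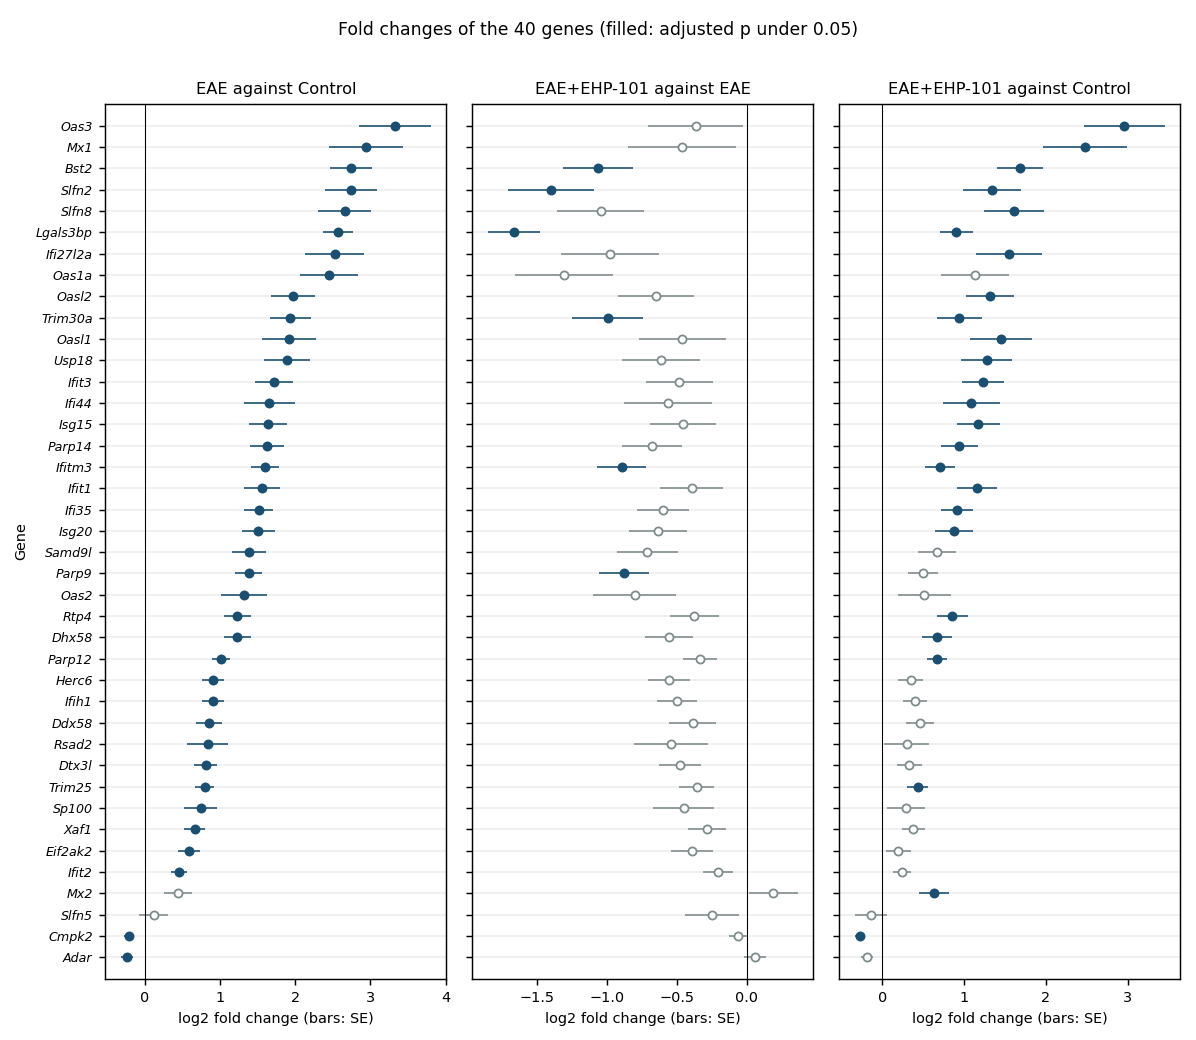
Log2 fold changes (x axis) with SE bars for the 40 genes (y axis, ordered by the change in EAE) in the 3 comparisons, with filled symbols for an adjusted p under 0.05. In EAE against Control 36 filled points lie right of 0 and 2 lie left of it, and in treated against EAE mice 6 filled points lie left of 0.

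The treated libraries did not form a uniform group. On log2(CPM + 0.1) relative to the mean of the Control libraries, the median over the 40 members was 1.61, 1.35 and 1.18 in EAE and 0.18, 0.90 and 0.96 in treated mice. The median over all genes tested stayed between 0.0013 and 0.027 in these 6 libraries. In treated replicate 1, 22 members lay above the range of the Control libraries, 13 within it and 5 below it. In treated replicates 2 and 3, 35 and 37 members lay above that range. Treated replicate 1 was the lowest of its group in 37 of 40 members (38.3% of all genes), and its level reached the lowest EAE library in 3 members, against 20 and 16 in replicates 2 and 3. Within EAE, replicate 1 was the highest library in 33 members (28.7% of all genes) and replicate 3 the lowest in 37 (39.0%).

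**Figure D2:**
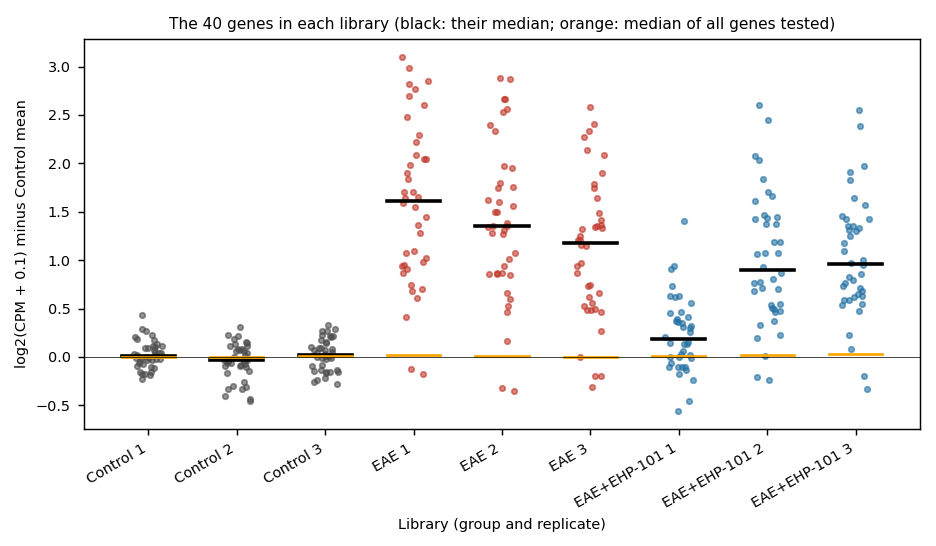
Each point is 1 of the 40 genes in 1 library (x axis), as log2(CPM + 0.1) minus the mean of the 3 Control libraries (y axis), with the median of the genes in black and of all genes tested in orange. The black line stands at 1.18 to 1.61 in the EAE libraries, at 0.18 in treated replicate 1 and at 0.90 and 0.96 in the other treated libraries.

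**Figure D3:**
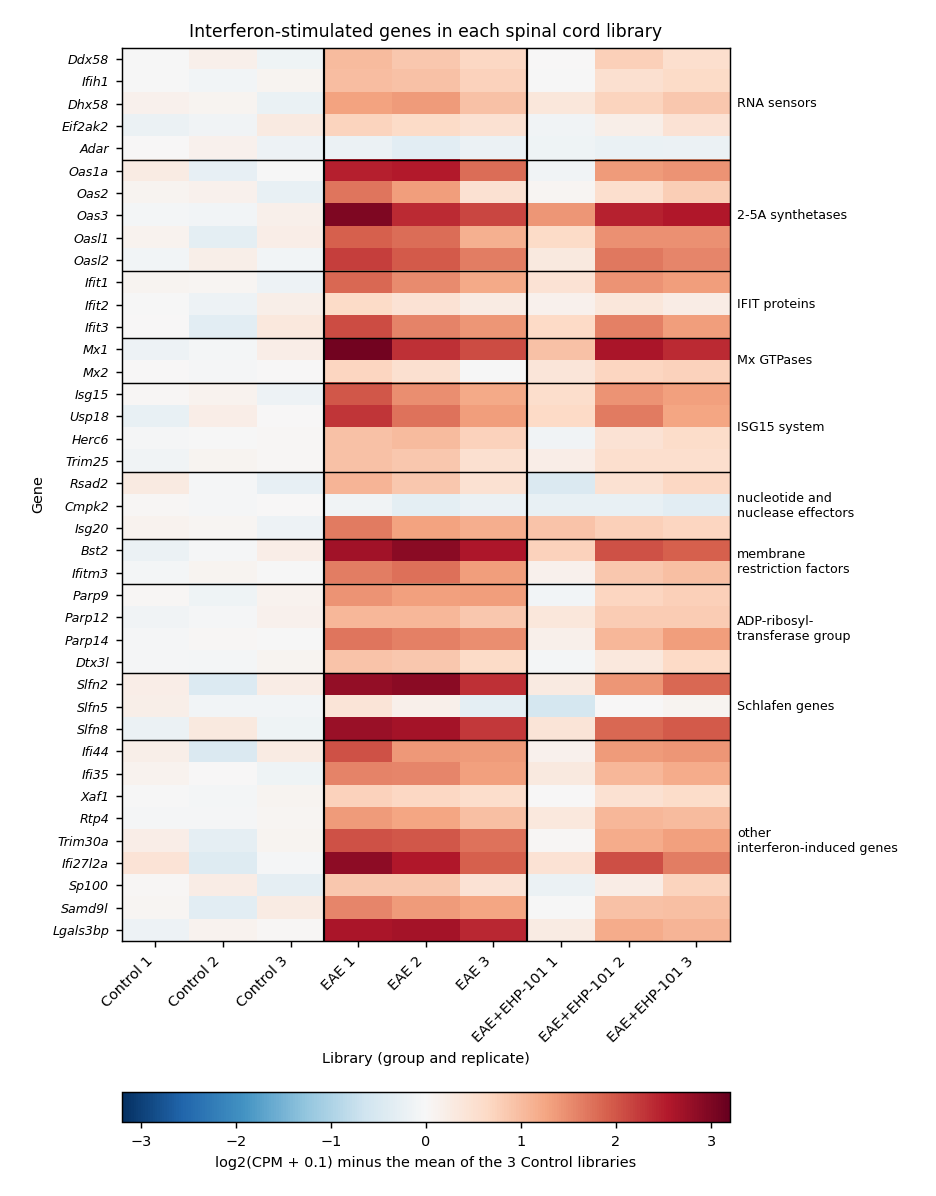
Level of each of the 40 genes (rows, grouped by role) in the 9 libraries (columns), coloured by log2(CPM + 0.1) minus the mean of the Control libraries, with red above and blue below that mean. The EAE columns are red in most rows, treated replicate 1 is pale in most rows, and Adar and Cmpk2 are pale or blue in every EAE column.

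Marker genes of several cell types differed between the same groups. The summed level of 8 monocyte and macrophage markers was 15.8, 9.397 and 12.3 CPM in Control, 401, 559.7 and 406 CPM in EAE and 29.04, 50.6 and 72.4 CPM in treated mice. Most of this sum was Lyz2, with 377, 542 and 391 CPM in EAE, and no other gene of the list was above the 7.096 CPM of Ccr2 in EAE replicate 1. Of these markers 6 of 8 rose in EAE and 4 of 8 were lower in treated than in EAE mice, while Ly6c2 (log2 fold change -1.51) and Chil3 (1.79) did not pass the test in EAE. The 8 microglia markers summed to 315, 333 and 395 CPM in Control, 836, 928 and 669.8 CPM in EAE and 370.4, 496 and 482 CPM in treated mice, with 6 of 8 higher in EAE and 5 of 8 lower in treated than in EAE mice. T cell markers, all 8 of which rose in EAE, summed to 3.68, 3.83 and 4.03 CPM in Control, 22.7, 18.97 and 17.7 CPM in EAE and 4.41, 8.38 and 12.5 CPM in treated mice. In each of these 3 lists treated replicate 1 was the lowest treated library, as it was in most members. Other lists went the other way in EAE. All 5 endothelial markers were lower in EAE, with sums of 200.2, 177 and 116 CPM in Control, 95.3, 82.1 and 53.2 CPM in EAE and 108, 116 and 119.95 CPM in treated mice. Of 7 neuron markers 3 were lower in EAE, with sums of 4803, 4602 and 4917 CPM in Control, 4098, 3951 and 4238 CPM in EAE and 4379, 4111 and 4162 CPM in treated mice. Neutrophil markers were highest in treated replicate 1 (50.1, 16.5 and 17.3 CPM in treated mice), and skeletal muscle markers were highest in Control replicate 1 (40.4, 2.405 and 2.13 CPM in Control). No marker of these lists was at 0 in every library of a group, and the part of cell numbers in the results on the members was not tested.

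The deviation of a gene from its mean also followed its exon length across genes, in a way that differed between groups. The correlation with log2 length, across genes that are not independent replicates, was 0.184 to 0.296 in the Control libraries and -0.218 to -0.145 in the EAE libraries. In treated mice it was 0.0136, -0.241 and -0.140. The median exon length was 3022.5 bases for the members and 2765 bases for all genes tested. With this trend removed the count of members higher in EAE stayed at 36 and the call of Adar ended (adjusted p = 0.522, edgeR). The members called higher in treated than in Control mice numbered 17, against 24. Of all genes tested, 761 were then called higher in treated than in Control mice, against 1669. In EAE 2545 genes were called higher, against 3391.

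Among the RNA sensors and RNA-binding enzymes, 4 of 5 rose in EAE and 1 fell, none passed the test between treated and EAE mice, and only Dhx58 was called higher in treated than in Control mice. Ddx58 encodes RIG-I, the cytoplasmic sensor of viral RNA ends. Its level was 8.9997, 10.1 and 8.22 CPM in Control, 18.5, 16.5 and 14.4 CPM in EAE and 9.18, 15.4 and 13.2 CPM in treated mice. EAE libraries were separate from Control libraries (log2 fold change 0.85, SE 0.17, adjusted p = 0.00257, edgeR), while the treated libraries reached into both groups. Ifih1 encodes the sensor MDA5, and it rose too (log2 fold change 0.90, SE 0.15, adjusted p = 0.000847, edgeR). All treated libraries lay below all EAE libraries for Ifih1, which was called lower by DESeq2 (adjusted p = 0.0335) and by edgeR without treated replicate 3 (adjusted p = 0.042). Dhx58 encodes LGP2, a regulator of both sensors, and its level was 2.46, 2.37 and 1.9002 CPM in Control, 5.56, 5.86 and 4.37 CPM in EAE and 2.91, 3.72 and 4.13 CPM in treated mice. All treated libraries lay above Control and below EAE, with a log2 fold change of 0.67 against Control (SE 0.18, adjusted p = 0.0278, edgeR). This last call ended without Control replicate 2 or 3 and without treated replicate 2 or 3.

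Eif2ak2 encodes PKR, the kinase that halts translation when it binds double-stranded RNA. It stood at 13.7, 14.5 and 19.1 CPM in Control, 25.5, 23.7 and 21.8 CPM in EAE and 14.5, 17.9 and 21.7 CPM in treated mice. Its rise in EAE (log2 fold change 0.59, SE 0.15, adjusted p = 0.0104, edgeR) did not hold without Control replicate 1 (adjusted p = 0.0505) or Control replicate 2 (adjusted p = 0.0577). Adar (gene 56417, chr3:89715022-89753455, plus strand) encodes the enzyme that edits adenosine to inosine in double-stranded RNA and so hides the cell's own RNA from the sensors. Per kilobase of exon it was the most abundant member in Control mice, at 37.1 CPM per kb. It went the other way from most members, with 227, 246 and 199.6 CPM in Control, 197, 175 and 195 CPM in EAE and 203, 193 and 195 CPM in treated mice. The EAE libraries lay just below the Control libraries (log2 fold change -0.24, SE 0.08, adjusted p = 0.0305, edgeR), and the treated libraries overlapped both groups. The call ended without Control replicate 2 (adjusted p = 0.0679, edgeR) and without EAE replicate 2 (adjusted p = 0.0743, edgeR). It also ended with only the compared groups (adjusted p = 0.0529, edgeR) and with the replicate block (adjusted p = 0.0554, edgeR). With the length trend removed, the log2 fold change was only -0.064 (adjusted p = 0.522, edgeR). The exons of Adar share 8 bases with Chrnb2 on the opposite strand.

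All 5 oligoadenylate synthetase genes rose in EAE. These enzymes make short adenylate chains, except Oasl1, which lacks that activity. None was called lower in treated than in EAE mice, and 3 (Oas3, Oasl1 and Oasl2) remained higher in treated than in Control mice. Oasl2 was the most abundant per kilobase, with 6.44, 7.85 and 6.45 CPM in Control, 32.3, 27.01 and 21.7 CPM in EAE and 8.57, 22.6 and 20.6 CPM in treated mice. Its level was 3.904-fold higher in EAE (log2 fold change 1.96, SE 0.29, adjusted p = 0.000515, edgeR), and treated replicate 1 stood near the Control libraries while replicates 2 and 3 came close to EAE replicate 3. Oas1a (gene 246730, chr5:120896256-120907525, minus strand) had 0.821, 0.538 and 0.655 CPM in Control, 4.17, 4.29 and 2.53 CPM in EAE and 0.608, 1.88 and 1.95 CPM in treated mice. It rose in EAE (log2 fold change 2.44, SE 0.39, adjusted p = 0.000723, edgeR). All treated libraries lay below all EAE libraries, and the difference missed the threshold (log2 fold change -1.31, SE 0.35, adjusted p = 0.0558, edgeR).

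Oas2 was measured at 1.35, 1.39 and 1.05 CPM in Control, 4.32, 3.33 and 1.81 CPM in EAE and 1.31, 1.88 and 2.24 CPM in treated mice, which is a rise in EAE (log2 fold change 1.32, SE 0.31, adjusted p = 0.00666, edgeR) with treated libraries that overlapped both groups. Oas3 (gene 246727, chr5:120753098-120777659, minus strand) was the least abundant member, at 0.0229 CPM per kb in Control and 0.236 CPM per kb in EAE. It had 0.0985, 0.0949 and 0.131 CPM in Control, 1.54, 0.993 and 0.811 CPM in EAE and 0.448, 1.03 and 1.12 CPM in treated mice. It had the largest log2 fold change of the members in EAE (log2 fold change 3.32, SE 0.48, adjusted p = 0.000428, edgeR) and in treated against Control mice (log2 fold change 2.96, SE 0.50, adjusted p = 0.00576, edgeR). Its size is uncertain, as the Control libraries held only 3 or 4 counts each. Oasl1, which restrains translation of Irf7, rose too (log2 fold change 1.91, SE 0.36, adjusted p = 0.00197, edgeR).

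The 3 IFIT genes encode proteins that bind viral RNA lacking the host's cap marks and block its translation. All 3 rose in EAE, none passed the test between treated and EAE mice, and Ifit1 and Ifit3 were higher in treated than in Control mice. Ifit1 (gene 15957, chr19:34640889-34650009, plus strand) had 4.96, 4.84 and 4.16 CPM in Control, 16.8, 13.3 and 10.8 CPM in EAE and 6.46, 12.8 and 11.98 CPM in treated mice. The mean was 4.65 ± 0.431 CPM in Control and 13.7 ± 3.01 CPM in EAE (SD, n = 3), a 2.93-fold rise (log2 fold change 1.55, SE 0.24, adjusted p = 0.000625, edgeR). Treated replicates 2 and 3 lay within the range of the EAE libraries, and replicate 1 lay below it but above every Control library (log2 fold change 1.16, SE 0.24, adjusted p = 0.0107 against Control, edgeR).

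Ifit3 followed the same order, with 7.78, 6.14 and 9.83 CPM in Control, 33.5, 23.7 and 20.8 CPM in EAE and 12.1, 23.9 and 19.9 CPM in treated mice. Its change in EAE was 1.72 ± 0.26 SE, adjusted p = 0.000514 on the log2 scale (edgeR), and in treated against EAE mice it was -0.48 ± 0.24 SE, adjusted p = 0.368 (edgeR). Ifit3 has a close relative, Ifit3b, and reads could be divided between them. Ifit2 moved the least of the 3, from 21.7, 19.6 and 24.8 CPM in Control, 33.4, 30.2 and 26.5 CPM in EAE and 24.1, 28.4 and 25.7 CPM in treated mice. Its EAE libraries were above all Control libraries by a small margin (log2 fold change 0.45, SE 0.11, adjusted p = 0.00767, edgeR), and the treated libraries overlapped both. Ifit2, Ifit3 and Ifit1 are neighbours on chr19 on the plus strand, with 6994 bases between the first pair and 51906 between the second.

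The Mx genes encode dynamin-like GTPases that trap viral nucleocapsids, Mx1 in the nucleus and Mx2 in the cytoplasm. In C57BL/6 mice Mx1 carries a deletion that leaves no full-length protein, so its RNA level does not stand for a functional protein. No protein was measured here, so the RNA level of Mx2 is not to be read as that of a working protein either. Mx1 (gene 17857, chr16:97447035-97462906, minus strand) had 0.2299, 0.253 and 0.328 CPM in Control, 3.05, 1.76 and 1.47 CPM in EAE and 0.608, 2.13 and 1.83 CPM in treated mice. It rose 7.66-fold in EAE (log2 fold change 2.94, SE 0.50, adjusted p = 0.00105, edgeR), and every treated library lay above every Control library (log2 fold change 2.48, SE 0.51, adjusted p = 0.0103, edgeR). Mx2 (gene 17858, chr16:97536081-97560901, plus strand) behaved otherwise, with 3.12, 3.01 and 3.08 CPM in Control, 4.98, 4.45 and 3.06 CPM in EAE and 4.06, 5.04 and 5.16 CPM in treated mice. EAE replicate 3 lay within the Control range while the other EAE libraries were above it, and the test was not passed (log2 fold change 0.44, SE 0.18, adjusted p = 0.0788, edgeR). All 3 treated libraries were above all Control libraries (log2 fold change 0.63, SE 0.18, adjusted p = 0.0332, edgeR), which was called. The difference between treated and EAE mice was 0.19 (SE 0.18, adjusted p = 0.664, edgeR). The call against Control ended without any 1 Control library and without treated replicate 2 or 3. The 2 genes lie head to head on chr16 with 73174 bases between them.

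The ISG15 system attaches the ubiquitin-like protein ISG15 to other proteins. All 4 members rose in EAE, none passed the test between treated and EAE mice, and 3 were higher in treated than in Control mice. Isg15 (gene 100038882, chr4:156199424-156200818, minus strand), the modifier itself, had 2.36, 2.499 and 2.06 CPM in Control, 9.39, 6.66 and 5.46 CPM in EAE and 3.42, 6.403 and 5.86 CPM in treated mice. Its mean went from 2.31 ± 0.223 CPM to 7.17 ± 2.02 CPM (SD, n = 3) in EAE (log2 fold change 1.63, SE 0.25, adjusted p = 0.000665, edgeR). The treated libraries were all above Control, and replicates 2 and 3 lay within the EAE range (log2 fold change 1.18, SE 0.26, adjusted p = 0.0128 against Control, edgeR). Usp18 removes ISG15 and blocks signalling at Ifnar2, and it rose 3.72-fold in EAE (log2 fold change 1.89, SE 0.30, adjusted p = 0.000784, edgeR). Its exons share 406 bases with gene 100504054 on the opposite strand, whose mean was 0 CPM in each group.

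Herc6 is the main ligase for ISG15 in mice. It had 10.6, 10.9 and 11.2 CPM in Control, 20.96, 22.01 and 18.1 CPM in EAE and 10.1, 15.04 and 16.4 CPM in treated mice. EAE libraries were above Control (log2 fold change 0.90, SE 0.15, adjusted p = 0.000992, edgeR), and all treated libraries lay below all EAE libraries without passing the test (log2 fold change -0.56, SE 0.15, adjusted p = 0.0558, edgeR). Trim25, a ubiquitin ligase that activates RIG-I, had 10.9, 12.4 and 12.02 CPM in Control, 22.7, 21.5 and 16.9 CPM in EAE and 13.6, 17.04 and 17.1 CPM in treated mice. It rose in EAE (log2 fold change 0.79, SE 0.13, adjusted p = 0.000745, edgeR) and stayed above every Control library in treated mice (log2 fold change 0.44, SE 0.13, adjusted p = 0.0353, edgeR). The call in treated mice ended with limma voom (adjusted p = 0.051) and with the replicate block (adjusted p = 0.0585, edgeR). It also ended without any 1 Control library and without treated replicate 2 or 3 (adjusted p 0.0595 to 0.144, edgeR).

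The nucleotide and nuclease effectors did not move together. Rsad2 (gene 58185, chr12:26442743-26456452, minus strand) encodes viperin, which makes a chain-terminating analogue of CTP, and it had 3.45, 2.72 and 2.33 CPM in Control, 6.07, 5.13 and 3.96 CPM in EAE and 2.02, 3.98 and 4.45 CPM in treated mice. The EAE libraries were all above the Control libraries (log2 fold change 0.84, SE 0.27, adjusted p = 0.0313, edgeR), and the treated libraries spread from below Control to within the EAE range. Its call ended without any 1 of Control replicates 2 and 3 and EAE replicates 1 and 2 (adjusted p 0.0866 to 0.119, edgeR). Cmpk2 (gene 22169, chr12:26469215-26479837, plus strand), a mitochondrial kinase of UMP and CMP, had 47.6, 45.7 and 46.9 CPM in Control, 42.9, 37.5 and 40.9 CPM in EAE and 39.7, 39.5 and 37.1 CPM in treated mice. It was lower in EAE (log2 fold change -0.21, SE 0.06, adjusted p = 0.0238, edgeR) and in treated mice (log2 fold change -0.27, SE 0.06, adjusted p = 0.0161, edgeR) than in Control mice, and EAE and treated libraries overlapped. The call in EAE ended without EAE replicate 2 (adjusted p = 0.0557, edgeR), and that in treated mice ended without treated replicate 2 or 3.

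Rsad2 and Cmpk2 are head-to-head neighbours on chr12, with starts 12763 bases apart in the deposited annotation, and moved in opposite directions in EAE. In Control mice Cmpk2 stood at 14.7 CPM per kb and Rsad2 at 0.748 CPM per kb. Isg20, an exonuclease that degrades RNA, had 0.657, 0.633 and 0.524 CPM in Control, 2.11, 1.602 and 1.47 CPM in EAE and 1.22, 1.0995 and 1.02 CPM in treated mice. It rose in EAE (log2 fold change 1.51, SE 0.22, adjusted p = 0.000482, edgeR). The treated libraries lay between both groups without overlap. The difference from Control was called (log2 fold change 0.88, SE 0.23, adjusted p = 0.0251, edgeR), and the difference from EAE was not (log2 fold change -0.63, SE 0.21, adjusted p = 0.121, edgeR). Here treated replicate 1 was the highest of its group.

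**Figure D4:**
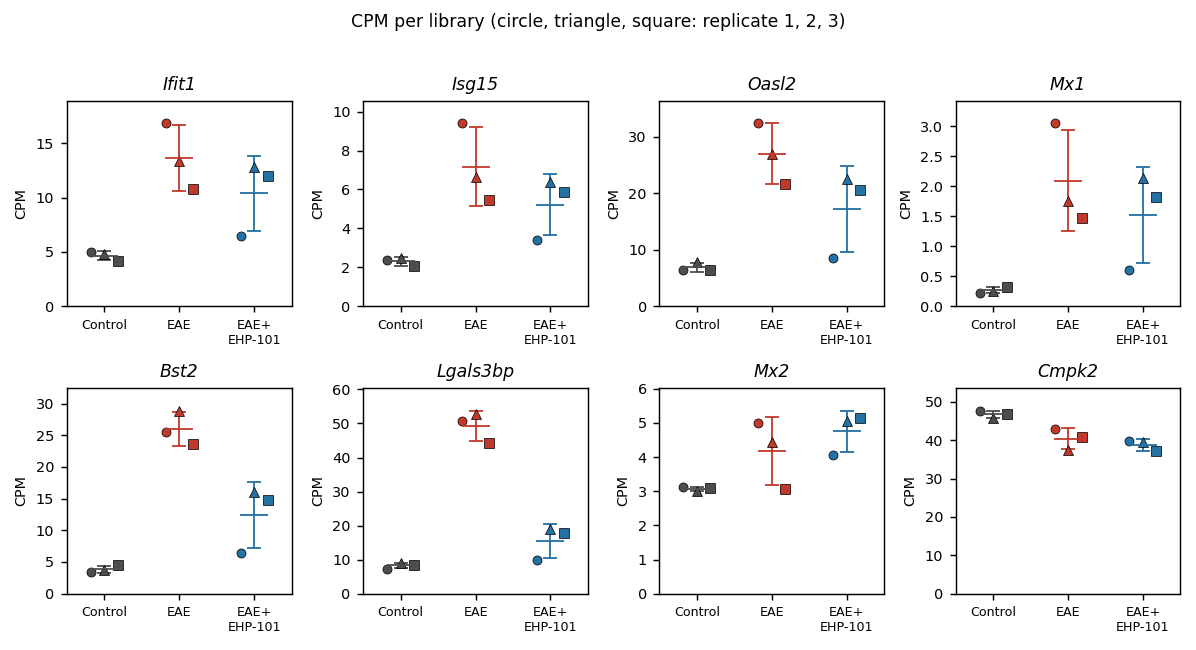
CPM (y axis, from 0) of 8 members in each library by group, with the mean and SD (n = 3) as bars and a separate symbol for each replicate. For Lgals3bp and Bst2 all treated libraries lie below all EAE libraries, for Mx2 treated replicates 2 and 3 lie above all EAE libraries, and for Cmpk2 all EAE and treated libraries lie below Control.

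Both membrane restriction factors rose in EAE and were lower in treated than in EAE mice, and both stayed above Control. Bst2 (gene 69550, chr8:71534259-71537437, minus strand) encodes tetherin, which holds budding virus at the cell surface. It had 3.38, 3.73 and 4.49 CPM in Control, 25.5, 28.9 and 23.5 CPM in EAE and 6.46, 16.1 and 14.8 CPM in treated mice. The mean rose from 3.87 ± 0.565 to 25.96 ± 2.69 CPM (SD, n = 3) in EAE (log2 fold change 2.75, SE 0.28, adjusted p = 5.85e-05, edgeR). Treated mice averaged 12.4 ± 5.21 CPM (SD, n = 3), and their libraries lay apart from both other groups. The difference from EAE (log2 fold change -1.06, SE 0.25, adjusted p = 0.0304, edgeR) lost its call without Control replicate 2 (adjusted p = 0.0596) and without EAE replicate 1, 2 or 3 (adjusted p = 0.0864, 0.135 and 0.0534). The difference from Control (log2 fold change 1.68, SE 0.28, adjusted p = 0.00575, edgeR) was called in every alternative fit.

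Ifitm3 (gene 66141, chr7:141009590-141010744, minus strand) blocks fusion of viral and endosomal membranes. It was the most abundant member per kilobase in EAE, at 54.004 CPM per kb, and had 10.97, 12.3 and 11.5 CPM in Control, 36.3, 39.3 and 29.4 CPM in EAE and 12.8, 21.1 and 22.7 CPM in treated mice. The 3 groups did not overlap. Ifitm3 was 3.02-fold higher in EAE than in Control (log2 fold change 1.596, SE 0.18, adjusted p = 0.000117, edgeR) and lower in treated than in EAE mice (log2 fold change -0.89, SE 0.18, adjusted p = 0.0128, edgeR). The second call ended without EAE replicate 1 (adjusted p = 0.0535, edgeR) and without EAE replicate 2 (adjusted p = 0.0719, edgeR). Treated mice were called higher than Control mice (log2 fold change 0.70, SE 0.19, adjusted p = 0.024, edgeR). That call ended without any 1 Control library and without treated replicate 2 or 3 (adjusted p 0.0515 to 0.111, edgeR). It also ended with the length trend removed (log2 fold change 0.44, adjusted p = 0.135, edgeR). Bst2 is also a marker of plasmacytoid dendritic cells and Ifitm3 is found in many myeloid and endothelial cells. Of 6 other plasmacytoid markers, only 3 passed the filter on low counts, and 2 of these 3, Irf8 and Cox6a2, rose in EAE and were lower in treated than in EAE mice. The sum of the list was 151, 155 and 168 CPM in Control, 172, 174 and 161 CPM in EAE and 145, 148 and 152 CPM in treated mice, and most of it was Tcf4, which neurons and glia also express and which passed neither test. The part of these cells in the results on Bst2 was not tested.

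The ADP-ribosyltransferase group adds or reads ADP-ribose marks. All 4 genes rose in EAE, Parp9 alone was lower in treated than in EAE mice, and Parp12 and Parp14 stayed higher than in Control. Parp12, which acts on translation and viral RNA, had 13.7, 14.4 and 16.3 CPM in Control, 31.2, 31.1 and 26.98 CPM in EAE and 18.9, 25.7 and 26.1 CPM in treated mice. The treated libraries lay between the other groups without overlap, and the difference from Control was called (log2 fold change 0.67, SE 0.12, adjusted p = 0.00712, edgeR) while that from EAE was not (log2 fold change -0.33, SE 0.12, adjusted p = 0.168, edgeR). Parp14 rose 3.07-fold in EAE (log2 fold change 1.62, SE 0.23, adjusted p = 0.000347, edgeR).

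Parp9 (gene 80285, chr16:35938470-35972621, plus strand) works as a complex with the ubiquitin ligase Dtx3l (gene 209200, chr16:35926515-35939027, minus strand). Parp9 had 6.67, 5.85 and 6.98 CPM in Control, 17.8, 16.2 and 16.7 CPM in EAE and 6.05, 10.4 and 11.1 CPM in treated mice. All treated libraries lay below all EAE libraries (log2 fold change -0.88, SE 0.18, adjusted p = 0.0148, edgeR), and treated replicate 1 lay within the Control range. This call ended without EAE replicate 1 (adjusted p = 0.0637, edgeR) and without EAE replicate 2 (adjusted p = 0.0527, edgeR). Dtx3l had 10.2, 9.93 and 11.01 CPM in Control, 19.5, 18.9 and 15.999 CPM in EAE and 9.92, 13.1 and 16.1 CPM in treated mice. It rose in EAE (log2 fold change 0.81, SE 0.15, adjusted p = 0.00186, edgeR), but treated replicate 3 lay above the lowest EAE library and the difference was not called (log2 fold change -0.48, SE 0.15, adjusted p = 0.105, edgeR). The genes lie head to head and share 334 exon bases on opposite strands. The libraries came from a stranded kit, but the sources used here do not give the strand setting of the counting, so the gene to which reads in that stretch were assigned is not known.

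Of the 3 Schlafen genes Slfn2 and Slfn8 rose in EAE and stayed above Control in treated mice, while Slfn5 passed no test. Slfn2 (gene 20556, chr11:83065112-83070678, plus strand) keeps T cells and monocytes quiescent. It had 1.74, 1.08 and 1.77 CPM in Control, 11.1, 11.6 and 7.92 CPM in EAE and 1.86, 4.17 and 5.57 CPM in treated mice. The EAE mean was 6.68-fold the Control mean (log2 fold change 2.74, SE 0.34, adjusted p = 0.0001901, edgeR), and all treated libraries were below all EAE libraries (log2 fold change -1.4003, SE 0.31, adjusted p = 0.0216, edgeR). The second call ended without EAE replicate 1 (adjusted p = 0.0824), EAE replicate 2 (adjusted p = 0.1002) or treated replicate 2 (adjusted p = 0.0711, edgeR). Slfn8 had 0.985, 1.42 and 1.02 CPM in Control, 8.24, 7.66 and 5.83 CPM in EAE and 1.54, 4.301 and 4.71 CPM in treated mice. Its rise was of like size (log2 fold change 2.66, SE 0.35, adjusted p = 0.000268, edgeR), and its lower level in treated mice missed the threshold (log2 fold change -1.04, SE 0.31, adjusted p = 0.0892, edgeR). Slfn8 has a close relative in Slfn9, between which reads could be divided.

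Slfn5 (gene 327978, chr11:82952102-82964850, plus strand), a nuclear Schlafen protein, had 14.4, 11.9 and 12.1 CPM in Control, 17.001, 14.3 and 10.3 CPM in EAE and 8.64, 12.9 and 13.5 CPM in treated mice. EAE replicate 3 lay below all Control libraries and EAE replicate 1 above all of them, and the change was 0.11 ± 0.19 SE, adjusted p = 0.674 on the log2 scale (edgeR). Without EAE replicate 1 its sign turned, to -0.069. Slfn5 shares 77 exon bases with an antisense gene, Slfn5os. The 3 Schlafen members lie in 1 cluster on chr11.

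The 9 other interferon-induced genes all rose in EAE. Lgals3bp and Trim30a were lower in treated than in EAE mice, and 6 of the 9 were called higher in treated than in Control mice. For Ifi44 and Trim30a, which are among these 6, treated replicate 1 lay within the Control range. Their calls against Control ended with limma voom (adjusted p = 0.102 and 0.0821) and with the replicate block (adjusted p = 0.0834 and 0.0683, edgeR). They also ended without any 1 Control library (adjusted p 0.0534 to 0.163, edgeR) and without treated replicate 2 or 3. Lgals3bp (gene 19039, chr11:118392752-118401931, minus strand) encodes a secreted glycoprotein that binds galectin-3. It had 7.39, 8.95 and 8.55 CPM in Control, 50.8, 52.8 and 44.3 CPM in EAE and 9.88, 18.98 and 17.8 CPM in treated mice. The EAE libraries were far above Control, with means of 49.3 ± 4.44 and 8.298 ± 0.812 CPM (SD, n = 3; log2 fold change 2.57, SE 0.20, adjusted p = 2.78e-05, edgeR). Treated mice averaged 15.6 ± 4.96 CPM (SD, n = 3) and did not overlap with either group. Their difference from EAE had the smallest adjusted p of the members in that comparison (log2 fold change -1.66, SE 0.19, adjusted p = 0.00139, edgeR) and held in every alternative fit. The difference from Control (log2 fold change 0.91, SE 0.20, adjusted p = 0.013001, edgeR) ended without treated replicate 2 or 3. Of the 2168 exon bases of Lgals3bp, 1267 are shared with gene 100861706 on the opposite strand, whose mean was 0 CPM in each group. The strand setting of the counting is not given, so how reads in that stretch were assigned is not known.

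Ifi27l2a encodes a small mitochondrial protein and had 2.102, 1.14 and 1.51 CPM in Control, 11.7, 9.58 and 6.02 CPM in EAE and 2.14, 6.79 and 4.995 CPM in treated mice. It rose 5.76-fold in EAE (log2 fold change 2.53, SE 0.39, adjusted p = 0.000657, edgeR), with treated replicate 1 close to Control and treated replicate 2 within the EAE range. Ifi35, a leucine-zipper protein, had 4.11, 3.83 and 3.44 CPM in Control, 11.6, 11.3 and 9.57 CPM in EAE and 4.73, 8.05 and 8.68 CPM in treated mice. Its treated libraries lay between the other groups without overlap, and the difference was called from Control (log2 fold change 0.92, SE 0.20, adjusted p = 0.0127, edgeR) and not from EAE (log2 fold change -0.60, SE 0.19, adjusted p = 0.108, edgeR). Trim30a (gene 20128, chr7:104409025-104465193, minus strand), a TRIM protein that restrains NF-kappaB signalling, had 5.81, 4.02 and 5.24 CPM in Control, 20.9, 19.8 and 16.9 CPM in EAE and 5.09, 11.4 and 12.4 CPM in treated mice. All treated libraries were below all EAE libraries (log2 fold change -0.99, SE 0.25, adjusted p = 0.0461, edgeR), and this call ended in 7 of the 9 fits with a library left out (adjusted p 0.0542 to 0.16). The mouse genome holds several relatives of Trim30a that could share its reads.

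Xaf1 promotes cell death, Sp100 is a component of nuclear bodies and Samd9l restricts poxviruses; these 3 were higher in EAE but did not pass the test between treated and Control mice. Xaf1 had 8.38, 8.0996 and 9.08 CPM in Control, 14.3, 13.5 and 12.6 CPM in EAE and 8.51, 11.9 and 12.8 CPM in treated mice, and treated replicate 1 lay within the Control range. Sp100 had 3.65, 4.14 and 2.88 CPM in Control, 6.52, 6.44 and 4.896 CPM in EAE and 3.103, 4.14 and 5.83 CPM in treated mice, and its rise in EAE (log2 fold change 0.74, SE 0.22, adjusted p = 0.0223, edgeR) ended without Control replicate 1 or 3 or EAE replicate 1 or 2 (adjusted p 0.056 to 0.0853). Samd9l had 7.52, 5.66 and 8.65 CPM in Control, 21.2, 18.5 and 17.2 CPM in EAE and 7.13, 13.7 and 13.96 CPM in treated mice, with a larger rise in EAE (log2 fold change 1.38, SE 0.23, adjusted p = 0.000919, edgeR) and all treated libraries below all EAE libraries. The remaining pair, Rtp4 and Ifi44, rose by 1.23 and 1.65 on the log2 scale in EAE.

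The genes upstream were read from a list of 61 pathway genes, of which 51 passed the filter on low counts. In EAE 38 of the 51 rose, 2 fell and 11 did not pass the test, with a median log2 fold change of 1.14. Of all genes tested 20.2% were called higher and 16.7% lower in EAE, with a median of 0.0055. In treated against EAE mice 17 pathway genes were lower and 0 were higher by edgeR (0 higher also at an unadjusted p under 0.05, by DESeq2 and by limma voom), with a median of -0.46. Over all genes 4.81% were called lower and 0.430% higher there, with a median of -0.0011. In treated against Control mice 21 pathway genes were higher and 1 was lower (Pias1), beside 9.96% and 9.82% of all genes tested. The count of 17 was 7 without EAE replicate 1 or 2 and 11 without treated replicate 2. All genes called lower numbered 464, 348 and 501 in these fits, against 805. The count of 21 was 13 without Control replicate 1, 9 without Control replicate 2, 5 without treated replicate 2 and 6 without treated replicate 3. All genes called higher numbered 942, 623, 237 and 427 in those fits, in the same order, against 1669.

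Interferon transcripts themselves were scarcely detected. None of the 9 ligand genes passed the filter, and 6 of them had 0 counts in all 9 libraries. At 95% confidence 0 counts allow up to 3 expected counts a library, which is 0.0985 CPM in Control replicate 1. Ifnb1, the interferon beta gene, had 0 counts over the Control libraries, 1 over the EAE libraries and 1 over the treated libraries. Ifng, the interferon gamma gene made by T cells and natural killer cells, had 0, 12 and 6 counts in these groups, and Ifnk had 1, 5 and 0. These counts are too low for a comparison at this depth.

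Among the 6 receptor genes 4 rose in EAE, and Ifnar1 was not among them. Ifnar1, the signalling chain for type I interferons, had 47.9, 49.8 and 49.8 CPM in Control, 51.5, 52.8 and 48.2 CPM in EAE and 45.1, 48.6 and 50.8 CPM in treated mice, and the groups overlapped (log2 fold change 0.05, SE 0.06, adjusted p = 0.583, edgeR). With the length trend removed, however, Ifnar1 was called higher in EAE (log2 fold change 0.27, adjusted p = 0.0181, edgeR). Ifnar2, its partner chain, had 17.999, 19.3 and 21.2 CPM in Control, 31.8, 34.1 and 28.4 CPM in EAE and 20.1, 27.6 and 25.6 CPM in treated mice. It was higher in EAE (log2 fold change 0.69, SE 0.12, adjusted p = 0.00101, edgeR). For interferon gamma, Ifngr1 rose from 23.6 ± 1.18 to 46.9 ± 5.85 CPM (SD, n = 3; log2 fold change 0.99, SE 0.11, adjusted p = 9.36e-05, edgeR) and was lower in treated mice (log2 fold change -0.68, SE 0.11, adjusted p = 0.00456, edgeR). Ifngr2 changed in the same directions (log2 fold changes 0.38 and -0.27), and the second call ended without any 1 of the EAE or treated libraries (adjusted p 0.054 to 0.0971, edgeR). Il10rb, a chain shared with interleukin-10 and interferon lambda receptors, was 2.03-fold higher in EAE (log2 fold change 1.02, SE 0.13, adjusted p = 0.000225, edgeR) and lower in treated mice (log2 fold change -0.78, SE 0.13, adjusted p = 0.00601, edgeR).

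Of the 6 kinases and transcription factors that carry the signal, 3 rose in EAE. Irf9, a DNA-binding partner of STAT proteins, had 12.6, 13.4 and 14.3 CPM in Control, 27.4, 27.2 and 24.9 CPM in EAE and 13.3, 22.7 and 24.7 CPM in treated mice. It rose in EAE (log2 fold change 0.98, SE 0.18, adjusted p = 0.00159, edgeR), and treated replicate 1 lay within the Control range. Stat2 had 32.7, 32.97 and 25.2 CPM in Control, 40.98, 34.95 and 35.6 CPM in EAE and 33.3, 39.6 and 41.3 CPM in treated mice and did not pass the test in EAE (log2 fold change 0.30, SE 0.12, adjusted p = 0.0638, edgeR). Stat2 was called higher in EAE with the length trend removed (log2 fold change 0.397, adjusted p = 0.026, edgeR). Tyk2, a kinase bound to Ifnar1, was called higher at the threshold (log2 fold change 0.37, SE 0.13, adjusted p = 0.0497, edgeR). That call ended in 12 of the 18 alternative fits (adjusted p 0.0562 to 0.176), among them 8 of the 9 with a library left out, so the count of 3 rests on it.

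**Figure D5:**
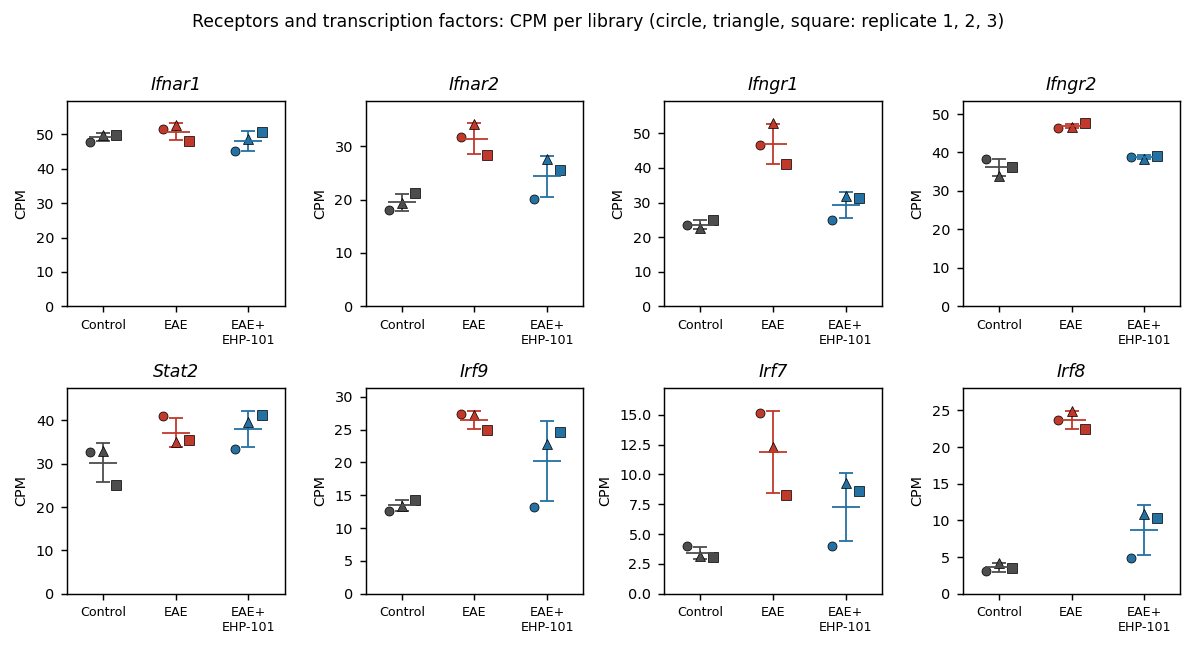
CPM (y axis, from 0) of 8 receptor, signalling and transcription factor genes in each library by group, with the mean and SD (n = 3) as bars and a separate symbol for each replicate. Ifnar1 stands between 45.1 and 52.8 CPM in all 9 libraries, while the EAE libraries of Irf9, Irf7 and Irf8 lie above all Control libraries.

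Of the 16 regulators of induction, 14 rose in EAE and 7 were lower in treated than in EAE mice. Irf7, the factor that amplifies type I interferon production and is itself induced by interferon, had 3.97, 3.16 and 3.05 CPM in Control, 15.1, 12.3 and 8.296 CPM in EAE and 4.03, 9.28 and 8.58 CPM in treated mice. It rose 3.51-fold in EAE (log2 fold change 1.81, SE 0.30, adjusted p = 0.000918, edgeR), and its difference between treated and EAE mice was not called (log2 fold change -0.71, SE 0.28, adjusted p = 0.222, edgeR). Irf8, a factor of myeloid cells and microglia, rose by 2.71 and was lower by a log2 fold change of -1.45 in treated mice (adjusted p = 3.58e-05 and 0.00438, edgeR). Tlr7, a sensor of single-stranded RNA in endosomes, changed by 2.304 and -1.61 (adjusted p = 8.74e-05 and 0.0036002, edgeR). Sting1, the adaptor for DNA sensing, changed by 1.66 and -0.89 (adjusted p = 8.97e-05 and 0.0122, edgeR), and Irf5, a factor of macrophages and microglia, by 2.19 and -1.11 (adjusted p = 0.000177 and 0.0259, edgeR). The lower level in treated mice lost its call for Sting1 without EAE replicate 1 or 2 (adjusted p = 0.0529 and 0.0691, edgeR). For Irf5 it did so without Control replicate 2, EAE replicate 1 or 2 or treated replicate 2 (adjusted p 0.0522 to 0.127) and with only the compared groups (adjusted p = 0.0553, edgeR).

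Among 5 negative regulators Ptpn6, Socs3 and Socs1 rose and Pias1 fell in EAE. Ptpn6, a phosphatase of blood cells and microglia, had 6.24, 5.44 and 4.98 CPM in Control, 35.996, 37.5 and 29.3 CPM in EAE and 8.19, 13.5 and 15.4 CPM in treated mice. Its EAE libraries were all above the other groups (log2 fold change 2.62, SE 0.20, adjusted p = 2.78e-05 in EAE, log2 fold change -1.47, SE 0.19, adjusted p = 0.00218 in treated against EAE mice, edgeR). Socs3 rose by 2.05 and was lower in treated mice, at -1.31 on the log2 scale (adjusted p = 0.000142 and 0.00725, edgeR). Socs1, an inhibitor of JAK kinases induced by interferon, rose by 1.36 (adjusted p = 0.00525, edgeR) at about 1.36 CPM in EAE. Pias1, which restrains STAT signalling, was lower in EAE (log2 fold change -0.28, SE 0.07, adjusted p = 0.00709, edgeR) and in treated mice (log2 fold change -0.27, SE 0.07, adjusted p = 0.0202, edgeR) than in Control. The call in treated mice ended without treated replicate 2 or 3 (adjusted p = 0.0861 and 0.0577, edgeR) and without the length trend (adjusted p = 0.0635).

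Partners of the members mostly moved with them: 14 of 18 tested rose in EAE, 1 fell and 4 were lower in treated than in EAE mice. Ube2l6, the conjugating enzyme for ISG15, rose (log2 fold change 1.37, SE 0.19, adjusted p = 0.000331, edgeR) and was lower in treated mice (log2 fold change -0.78, SE 0.18, adjusted p = 0.0289, edgeR). The second call ended with only the compared groups (adjusted p = 0.0548) and without Control replicate 2, treated replicate 2 or any 1 EAE library (adjusted p 0.0501 to 0.106, edgeR). Lgals9, a galectin induced by interferon, went from 12.98 ± 0.449 to 29.97 ± 4.34 CPM in EAE (SD, n = 3; log2 fold change 1.21, SE 0.14, adjusted p = 0.000107, edgeR) and was lower in treated mice (log2 fold change -0.65, SE 0.13, adjusted p = 0.0152, edgeR), a call that ended without EAE replicate 1 or 2 (adjusted p = 0.0739 and 0.0833). Ifi207 and Ifi204, members of the Ifi200 family of nucleic acid sensors, rose by 4.68 and 3.61 (adjusted p = 4.69e-05 and 0.000125, edgeR). In treated against EAE mice Ifi207 was lower (log2 fold change -1.93, SE 0.34, adjusted p = 0.007998, edgeR), and the difference of Ifi204 was not called (log2 fold change -1.22, SE 0.34, adjusted p = 0.0665, edgeR).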

How the data were processed

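Spinal cord RNA from 9 mice was sequenced as poly-A selected, stranded, single-end libraries, per the labels' protocols. The deposited table holds raw read counts per gene under Entrez identifiers in mm10 coordinates, per the file headers. Per the submitters' processing notes, the tools included HISAT2 2.1.0, featureCounts 1.6.1, Trimmomatic 0.36 and DESeq2 1.20.0. The sources used here do not give the strand setting or the handling of multiply mapped reads.

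In R 4.3.3 with edgeR 4.0.16, filterByExpr left 16749 of 27179 identifiers, and after TMM scaling all 9 libraries entered 1 quasi-likelihood fit with a mean for each group (prior degrees of freedom 5.28). SE was obtained from the log2 fold change and the square root of F. CPM per kb divides by exon length. The p-values rest on the spread among these 9 mice only. Symbols came from RefSeq (GRCm38.p6) for 25275 identifiers. The pipeline was tested on simulated data. Alternatives were DESeq2 1.42.0 (size factors and Wald test), upper quartile factors, limma 3.58.1 voom, 2 other filters on low counts, the compared groups alone, a replicate block, removal of a gene length trend, and each library left out.

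Values in every library are given for up to 3 members of each role with the highest level per kilobase, those whose call differs from most of their role, and the extremes. Of each pathway role up to 4 genes with the smallest p are named, besides Stat2, Irf9, Irf7, the interferon receptors, Ifnb1 and Ifng. Ifnk was named after its values were seen. Some genes named by the rule were left out. The members and lists were chosen with earlier results of these data known.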

Additional observations from a re-analysis of the deposited data

How the results depend on the processing

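Counts of members and pathway genes stayed within 1.5 times under the alternatives other than leaving out a library, with these exceptions. DESeq2's Wald test called 13 members lower in treated than in EAE mice, against 6. With limma voom 13 pathway genes were higher in treated than in Control mice, against 21. The members lower in EAE numbered 1, against 2, with only the compared groups, with the replicate block and without the length trend. Without that trend 1 pathway gene was lower in EAE, against 2, and 0 were lower in treated than in Control mice, against 1. The cause was not tested.

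With single libraries left out, the members called ranged from 34 to 37 higher and 0 to 2 lower in EAE, from 0 to 0 higher and 1 to 10 lower in treated against EAE mice, and from 3 to 31 higher and 0 to 2 lower in treated against Control mice. Pathway genes ranged from 35 to 39 higher and 1 to 3 lower in EAE, from 7 to 17 lower in treated against EAE mice, and from 5 to 29 higher and 0 to 2 lower in treated against Control mice. All genes called in these fits ranged from 2160 to 3399 higher in EAE. They ranged from 348 to 921 lower in treated against EAE mice, and from 237 to 1712 higher in treated against Control mice. An arm with 2 libraries is assumed to vary like the others.

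Some uncalled log2 fold changes turned sign. With single libraries left out, values in EAE ranged from -0.069 to 0.276 for Slfn5 and from -0.0127 to 0.0719 for Ifnar1. In treated against EAE mice they ranged from -0.0282 to 0.125 for Stat2, -0.448 to 0.026 for Slfn3, -0.176 to 0.895 for Slfn4, -0.254 to 0.0838 for Oas1c, -0.406 to 0.0753 for Ifit3b and -0.161 to 0.0247 for Ifit1bl1. In treated against Control mice they ranged from -0.261 to 0.0357 for Slfn5 and from -0.0799 to 0.00951 for Ifnar1. Without the length trend Pias1 stood at -0.0015 in treated against EAE mice, and Slfn5 at 0.0026 and Ifnar1 at 0.135 in treated against Control mice.

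The sources used here give no pairing of samples by replicate number. The correlation of same-numbered deviations ran from -0.279 to 0.214, and that of other-numbered deviations from -0.300 to 0.334. Each deviation was taken from the mean of its own group of 3, so these values cannot decide whether samples were paired. With the replicate block the calls of 2 members ended in EAE (Adar and Rsad2), of 1 in treated against EAE mice (Trim30a) and of 5 in treated against Control mice, and no member was gained. Over all genes the block gave 44 higher and 678 lower in treated against EAE mice, against 72 and 805.

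Depth limits the interferon genes, Oas3 and Mx1 in Control, where few reads were counted. The table does not show how reads of close relatives, or of exons shared on opposite strands, were divided. The 3 libraries a group, and the spread of the treated ones, limit the precision of every call against treated mice.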

Other observations

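Relatives of the members from the same gene families, named after their values were seen, did not all follow them. Slfn1 had 0.0985, 0 and 0.0983 CPM in Control, 1.66, 1.25 and 0.936 CPM in EAE and 0.544, 0.711 and 1.54 CPM in treated mice and rose in EAE (log2 fold change 4.22, SE 0.63, adjusted p = 0.000519, edgeR); the size is uncertain, as it rests on very few Control counts. Slfn3 had 0.755, 0.506 and 0.524 CPM in Control, 0.393, 0.224 and 0.374 CPM in EAE and 0.384, 0.291 and 0.192 CPM in treated mice and lay lower in EAE without passing the test (log2 fold change -0.84, SE 0.34, adjusted p = 0.0718, edgeR). Slfn4 had 0.361, 0.127 and 0.229 CPM in Control, 1.66, 0.545 and 0.624 CPM in EAE and 1.599, 0.647 and 1.02 CPM in treated mice, and its rise in EAE (log2 fold change 1.98, SE 0.57, adjusted p = 0.01804, edgeR) was lost on removing either the second Control library (adjusted p = 0.0786) or the first EAE library (adjusted p = 0.0868). It was one of the genes for which treated replicate 1 was the highest treated library, and neutrophil markers were highest in that library too; their part in this was not tested. Slfn9, the close relative of Slfn8, rose (log2 fold change 1.79, SE 0.27, adjusted p = 0.000534, edgeR) and was lower in treated than in EAE mice (log2 fold change -1.03, SE 0.25, adjusted p = 0.0368, edgeR). The second call ended in 8 of the 9 fits with a library left out (adjusted p 0.0512 to 0.135) and with only the compared groups (adjusted p = 0.0565).

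Among the Oas1 relatives, Oas1b rose in EAE (log2 fold change 1.1999, SE 0.34, adjusted p = 0.0182, edgeR), a call that ended without EAE replicate 1 (adjusted p = 0.0673), and Oas1c did not pass the test (log2 fold change 0.31, SE 0.19, adjusted p = 0.221, edgeR). Ifit3b had 4.83, 5.16 and 6.42 CPM in Control, 15.2, 10.8 and 10.3 CPM in EAE and 7.39, 14.6 and 10.8 CPM in treated mice. It rose in EAE (log2 fold change 1.14, SE 0.23, adjusted p = 0.00312, edgeR), and treated replicates 2 and 3 lay within the EAE range. Ifit1bl1, of the same family, had 2.82, 2.59 and 4.06 CPM in Control, 2.75, 2.76 and 2.78 CPM in EAE and 2.21, 2.88 and 2.72 CPM in treated mice and passed no test in EAE (log2 fold change -0.19, SE 0.19, adjusted p = 0.443, edgeR).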
